A study of Mus musculus with 6 samples.

Results

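Hemoglobin and red cell genes were examined in the ovaries of newborn mice. The 9 genes were taken by symbol from the 47122 genes of the deposited table: the 4 adult globins Hba-a1, Hba-a2, Hbb-bs and Hbb-bt, the 3 embryonic globins Hba-x, Hbb-bh1 and Hbb-y, the heme enzyme gene Alas2 and the red cell membrane gene Slc4a1. The samples were 3 of ovary with BCAS2 knocked out in oocytes (BCAS2 cKO) and 3 of wild-type (WT) ovary, all at 1 day post partum (dpp). The tissue is labelled ovary, although a note on the samples speaks of granulosa cells. Total RNA was sequenced, and levels are in FPKM, fragments per kilobase of gene scaled to the size of the library. The sources used here do not give the driver of the deletion, the strain, the number of animals in a sample or any washing out of blood. Replicates may therefore differ for technical reasons, and p-values measure only the spread between these samples.

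Hemoglobin is a tetramer of alpha-type and beta-type chains, each holding a heme. In the mouse the alpha-type genes lie together on chromosome 11 and the beta-type genes on chromosome 7. Embryonic globins are made by the primitive red cells of the yolk sac, and adult globins by the definitive red cells that arise first in the fetal liver. The ovary itself is not a site of red cell formation, and blood in its vessels brings red cells and reticulocytes, young red cells that still hold RNA, into a sample of the whole organ.

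The targeted gene and ovary markers were read first. Bcas2 was at 18.9, 21.9 and 18.3 FPKM in the cKO ovaries, against 54.5, 37.5 and 35.7 FPKM in the WT ovaries. All 12 genes of an oocyte and pregranulosa list were measured in every library. Their levels summed to 794 to 879 FPKM in cKO and 822 to 877 FPKM in WT. Of these genes, 5 were highest in WT replicate 3, 2 in WT replicate 1, 2 in cKO replicate 3 and 1 in cKO replicate 2. Nobox and Foxl2 were chosen after their values were seen. Nobox was at 54.5, 55.2 and 81.9 FPKM in WT replicates 1 to 3, and Foxl2 at 163, 101 and 82.3 FPKM. In cKO replicates 1 to 3, Nobox was at 66.3, 66.3 and 69.3 FPKM and Foxl2 at 82.3, 98.0 and 106 FPKM. The sum thus hides different orders and is no sign of an even make-up of cells. Of 14589 genes tested with limma over the whole table, 0 were called higher (0%) and 0 lower (0%) in cKO at an adjusted p under 0.05. With no adjustment, limma put 443 genes under 0.05, and limma-voom on recovered reads called 0 genes and put 379 under 0.05 unadjusted. Bcas2 itself had a log2 fold change of −1.05, with an unadjusted p of 0.000502 and an adjusted p of 0.955 in limma. The same adjusted p for another gene is thus no sign of equal levels.

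The promoters are shown because the adult globins and Alas2 had their highest level in the same library while the embryonic globins stayed near 0. Below are the 250 bases before the start of 6 of them, read 5′ to 3′ on the gene's own strand (RefSeq, GRCm38.p6, not the build of the deposited coordinates): chr11:32283422-32283671 (plus strand), chr7:103827929-103828178 (minus), chr7:103813924-103814173 (minus), chr11:32276350-32276599 (plus), chr7:103853208-103853457 (minus) and chrX:150547167-150547416 (plus). Capitals mark 4 motifs of 5 letters on either strand: GATAA, whose core is bound by the GATA factors, CACCC, bound by KLF1, CCAAT, bound by NF-Y, and TATAA, the TATA box.
Hba-a1: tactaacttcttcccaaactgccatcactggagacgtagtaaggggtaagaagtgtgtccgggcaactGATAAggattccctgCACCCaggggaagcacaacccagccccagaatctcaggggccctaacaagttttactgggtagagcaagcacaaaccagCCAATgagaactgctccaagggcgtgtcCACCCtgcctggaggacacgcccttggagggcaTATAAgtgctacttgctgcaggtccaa
Hbb-bs: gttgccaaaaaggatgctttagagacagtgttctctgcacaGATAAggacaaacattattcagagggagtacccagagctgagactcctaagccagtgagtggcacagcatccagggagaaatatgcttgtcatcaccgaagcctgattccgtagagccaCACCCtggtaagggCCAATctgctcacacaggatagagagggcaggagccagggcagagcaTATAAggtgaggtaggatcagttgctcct
Hbb-bt: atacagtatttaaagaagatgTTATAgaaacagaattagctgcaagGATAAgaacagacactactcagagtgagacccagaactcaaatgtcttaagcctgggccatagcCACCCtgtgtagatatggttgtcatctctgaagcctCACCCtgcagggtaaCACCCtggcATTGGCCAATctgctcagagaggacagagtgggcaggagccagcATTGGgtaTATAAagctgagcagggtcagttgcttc
Hba-x: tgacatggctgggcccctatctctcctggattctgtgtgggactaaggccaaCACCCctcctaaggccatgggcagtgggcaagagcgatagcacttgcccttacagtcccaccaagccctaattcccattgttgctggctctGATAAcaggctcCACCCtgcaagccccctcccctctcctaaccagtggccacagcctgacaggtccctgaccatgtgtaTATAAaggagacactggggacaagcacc
Hbb-y: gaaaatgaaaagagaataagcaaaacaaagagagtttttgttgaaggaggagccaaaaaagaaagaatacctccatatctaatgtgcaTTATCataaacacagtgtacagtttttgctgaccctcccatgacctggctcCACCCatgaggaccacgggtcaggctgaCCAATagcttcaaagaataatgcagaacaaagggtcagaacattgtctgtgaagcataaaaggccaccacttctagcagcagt
Alas2: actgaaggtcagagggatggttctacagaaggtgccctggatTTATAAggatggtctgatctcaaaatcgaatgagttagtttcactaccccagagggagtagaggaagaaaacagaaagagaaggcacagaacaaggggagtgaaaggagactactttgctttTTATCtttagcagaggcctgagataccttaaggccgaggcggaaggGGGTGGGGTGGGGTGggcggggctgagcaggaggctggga

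Promoters of 7 of the 9 genes were in the sequence table. The Hba-a2 promoter matched that of Hba-a1 base for base over 247 bases, at an offset of 3, and is not printed. GATAA occurred in 7 of the 7 promoters and in 22.6% of all 32851 promoters of the same length, CACCC in 7 of 7 and 52.0%, CCAAT in 5 of 7 and 33.8%, and TATAA in 6 of 7 and 22.8%. All 4 motifs stood together in the 4 adult globin promoters and in none of the other 3, against 0.968% of all promoters. The adult alpha promoters are near copies and not separate cases, and only exact letters counted as a match. The motifs were not picked blind to these genes, so the shares carry no test. In the adult beta gene Hbb-bt, CCAAT and its complement lay side by side from position −80 to −71, counted back from the first base of the gene, and the TATA motif began at −28. In Alas2 the 3 CACCC matches lay end to end on the other strand from −40 to −26. The Alas2 TATAA match overlapped its own complement at −208, whereas in each adult globin a TATAA match began between −30 and −27. The embryonic promoters aligned less closely: Hbb-y and Hbb-bs shared 50.7% of aligned bases, against 69.3% for Hbb-bt and Hbb-bs. These are letter matches and not measured binding.

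Adult alpha globin was abundant in every ovary and most abundant in cKO replicate 2. Hba-a1 (chromosome 11, 32233672 to 32234486, GRCm39, plus strand), the first adult alpha chain gene, was at 231, 4208 and 476 FPKM in cKO replicates 1, 2 and 3, against 170, 149 and 432 FPKM in WT replicates 1, 2 and 3. The cKO replicate 2 value was 8.85 times the next highest, which was in cKO replicate 3, and the groups overlapped. Its log2 fold change was 1.80 (SE 1.03, 95% interval −0.63 to 4.23), with an adjusted p of 0.955 in limma and an exact permutation p of 0.2. Fewer red cells in a sample and less RNA per cell cannot be told apart in such values.

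Hba-a2 (chromosome 11, 32246492 to 32247310, plus strand), the second adult alpha gene, followed the same order. It was at 46.0, 582 and 58.7 FPKM in cKO replicates 1 to 3, against 26.2, 25.7 and 46.6 FPKM in WT replicates 1 to 3. Only cKO replicate 1, just under WT replicate 3, kept the groups from separating. The log2 fold change was 1.86 (SE 0.91), with an adjusted p of 0.955 in limma and an exact permutation p of 0.2.

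Adult beta globin gave the highest level of any member. Hbb-bs (chromosome 7, 103475730 to 103477135, minus strand), which encodes the s chain, stood at 344, 6559.7 and 536 FPKM in cKO replicates 1 to 3, against 174, 259.8 and 514 FPKM in WT replicates 1 to 3. Without cKO replicate 2, the other 5 libraries spanned 174 to 536 FPKM. Its log2 fold change was 1.90 (SE 1.07), with an adjusted p of 0.955 in limma and an exact permutation p of 0.2.

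Hbb-bt (chromosome 7, 103461731 to 103463130, minus strand), which encodes the t chain, had the largest excess in cKO replicate 2 of the 6 members that passed the filter. It was at 67.9, 1690.3 and 114 FPKM in cKO replicates 1 to 3, against 27.0, 50.6 and 119.9 FPKM in WT replicates 1 to 3. The cKO replicate 2 value was 14.1 times the next highest, here WT replicate 3. The log2 fold change was 2.09 (SE 1.18), with an adjusted p of 0.955 in limma and an exact permutation p of 0.3.

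The paired adult genes are close copies, so their single values are uncertain. Of all windows of 100 bases in the Hba-a1 transcript, 56.5% occur unchanged in Hba-a2, and 74.5% of those of Hba-a2 occur in Hba-a1 (GENCODE M21). For Hbb-bs in Hbb-bt the share was 62.6%, and for Hbb-bt in Hbb-bs 54.8%. The Hbb-bs and Hbb-bt pair is also the arrangement of some mouse strains only. Within these limits the Hba-a1 level was 5.02, 7.23 and 8.10 times that of Hba-a2 in cKO replicates 1 to 3, and 6.49, 5.80 and 9.28 times in WT replicates 1 to 3. The Hbb-bs level was 5.07, 3.88 and 4.69 times that of Hbb-bt in cKO and 6.47, 5.13 and 4.29 times in WT.

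**Figure D1:**
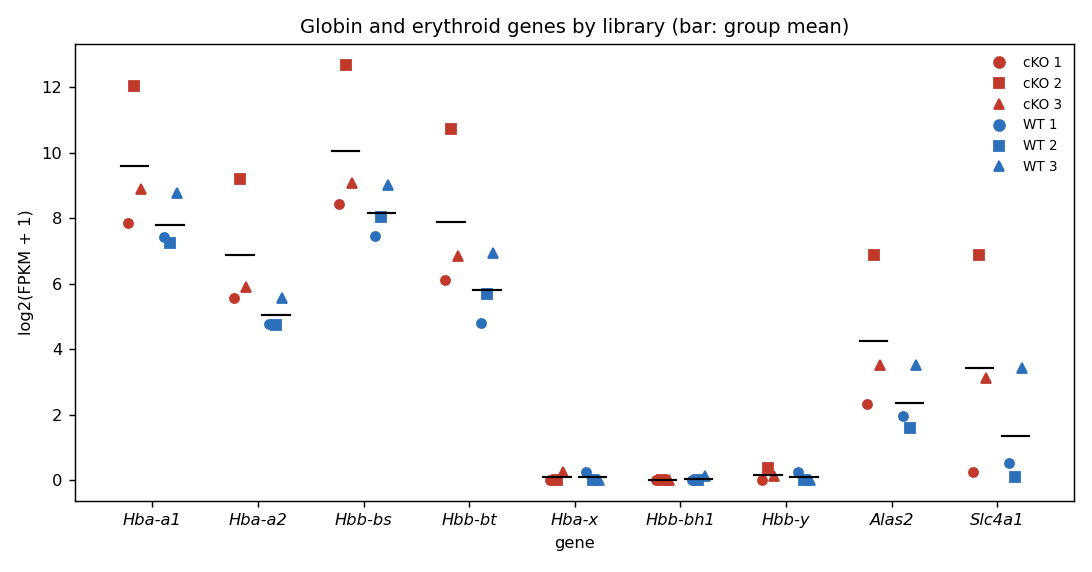
Level of the 9 genes as log2(FPKM + 1) (y axis) in each library, with cKO libraries in red left of WT libraries in blue, 1 marker shape per replicate number and a bar at the group mean. In each of the 6 genes above the embryonic globins, cKO replicate 2 sits above the other 5 libraries, and the embryonic genes lie near 0 in all 6.

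Summed over the 4 adult genes, globin was at 689, 13040 and 1185 FPKM in cKO replicates 1 to 3, against 397, 485 and 1113 FPKM in WT replicates 1 to 3. The sum in cKO replicate 2 was 11.01 times the next highest and 32.8 times the lowest, while the other 5 libraries lay within 2.98 times of each other. The mean was 4971 ± 6992 FPKM in cKO and 665 ± 390.3 FPKM in WT (SD, n = 3 each), a ratio of 7.47, which became 1.41 without cKO replicate 2. Adult globin reads made up 0.0430%, 0.795% and 0.0719% of the library in cKO replicates 1 to 3, and 0.0229%, 0.0298% and 0.0671% in WT replicates 1 to 3. The 95% Clopper-Pearson interval for cKO replicate 2 was 0.791% to 0.799%, so counting error is small beside the spread between libraries. The balance of chains varied less than the level. Summed beta over summed alpha FPKM was 1.49, 1.72 and 1.22 in cKO replicates 1 to 3, and 1.03, 1.78 and 1.33 in WT replicates 1 to 3.

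Embryonic globins were near the limit of detection in both groups. All 3 stayed below the filter and were not tested. Hbb-y (chromosome 7, 103500961 to 103502414, minus strand), the epsilon-type beta chain, had 0, 3 and 1 reads in cKO replicates 1 to 3, against 2, 0 and 0 reads in WT replicates 1 to 3, with a highest level of 0.288 FPKM. Hba-x (chromosome 11, 32226600 to 32228116, plus strand), the zeta-type alpha chain, had 0, 0 and 2 reads in cKO and 2, 0 and 0 reads in WT. Hbb-bh1 (chromosome 7, 103490845 to 103492369, minus strand), the other embryonic beta-type gene, had 0 reads in all 3 cKO libraries and 1 read in WT, in replicate 3. For comparison, 3 reads correspond to 0.252 to 0.292 FPKM of Hbb-bh1 in these libraries.

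The 6 libraries held 11 embryonic and 176465 adult globin reads in all. In cKO replicate 2, with 133588 adult reads, the 3 embryonic reads were 0.00225% of globin reads (95% Clopper-Pearson interval 0.000463% to 0.00656%). The 3 embryonic reads of cKO replicate 3 were 0.0227% (0.00468% to 0.0663%), the 4 of WT replicate 1 were 0.0963% (0.0262% to 0.246%) and the 1 of WT replicate 3 was 0.00762% (0.000193% to 0.0424%). For the 0 embryonic reads of cKO replicate 1 the upper end of the same interval was 0.0508% of its globin reads, and for the 0 of WT replicate 2 it was 0.0718%. Taken instead as 3 reads of the total, the limit that a count of 0 allows was 0.0413% in cKO replicate 1 and 0.0584% in WT replicate 2. The excess of globin reads in cKO replicate 2 was thus one of adult globins, and no embryonic gene there exceeded 3 reads. No window of 50 bases of the Hbb-y transcript occurs in Hbb-bs, and none of Hba-x in Hba-a1.

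Alas2 (chromosome X, 149330413 to 149353618, plus strand) encodes the erythroid form of the enzyme that makes aminolevulinic acid, the first step of heme synthesis. It was at 4.02, 116 and 10.5 FPKM in cKO replicates 1 to 3, against 2.84, 2.03 and 10.3 FPKM in WT replicates 1 to 3. cKO replicate 2 stood at 11.03 times the next highest, and replicate 3 of each group lay at nearly the same level. The log2 fold change was 1.89 (SE 1.13), with an adjusted p of 0.955 in limma and an exact permutation p of 0.2. The Alas2 locus overlaps 2 genes on the opposite strand, Apex2 and Mir3620, neither above 0.923 FPKM in any library.

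Slc4a1 (chromosome 11, 102239646 to 102256107, minus strand) encodes band 3, the anion exchanger of the red cell membrane. It was at 0.177, 117 and 7.62 FPKM in cKO replicates 1 to 3, against 0.429, 0.0759 and 9.68 FPKM in WT replicates 1 to 3. The reads behind these values were 14, 8955 and 642 in cKO and 34, 6 and 860 in WT. cKO replicates 2 and 3 and WT replicate 3 were high and the other 3 libraries low, a split that ran through both groups. The log2 fold change was 2.06 (SE 1.66), with an adjusted p of 0.955 in limma and an exact permutation p of 0.6. Slc4a1 passed the filter through those 3 libraries.

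Set against globin, Alas2 and Slc4a1 behaved differently. Per 1000 FPKM of adult globin, the Alas2 level was 5.84, 8.90 and 8.88 FPKM in cKO replicates 1 to 3, and 7.16, 4.18 and 9.30 FPKM in WT replicates 1 to 3, a span of 2.23 times over the 5 libraries other than cKO replicate 2. Per 1000 FPKM of adult globin, the Slc4a1 level was 0.257, 8.97 and 6.43 FPKM in cKO and 1.08, 0.157 and 8.69 FPKM in WT, a span of 55.5 times over the same 5 libraries. On that scale cKO replicate 2 lay close to WT replicate 3, while cKO replicate 1 and WT replicates 1 and 2 lay lowest.

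**Figure D2:**
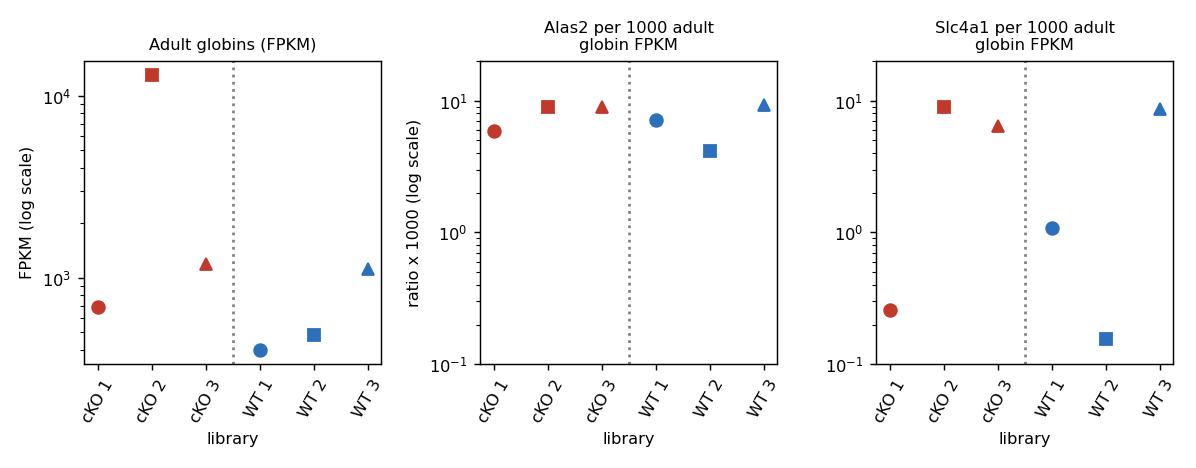
Summed adult globin level in FPKM (left), and Alas2 (middle) and Slc4a1 (right) per 1000 FPKM of adult globin, on log axes, 1 point per library, with cKO left of WT. cKO replicate 2 stands alone on the left at 13040 FPKM, while on the right it stands with cKO replicate 3 and WT replicate 3, between 6.43 and 8.97.

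Of the 6 members that passed the filter, 0 were called in either direction, and in 0 did the groups separate, where the values of the 2 groups did not overlap for 7.88% of all tested genes. Their unadjusted p in limma ran from 0.0801, for Hba-a2, to 0.255, for Slc4a1. The median log2 fold change of these 6 was 1.89, and that of all tested genes was −0.01, with 48.7% of tested genes higher in cKO. cKO replicate 2 was the highest library for all 6, against 21.5% of tested genes. It was at least 2 times the highest other library for all 6, against 0.452% of tested genes, or 66 genes. Of these 66, 6 are the members, 18 are in the erythroid lists described next and 42 are in neither. cKO replicate 2 was singled out by earlier results on the same values, so these shares are description and carry no test.

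**Figure D3:**
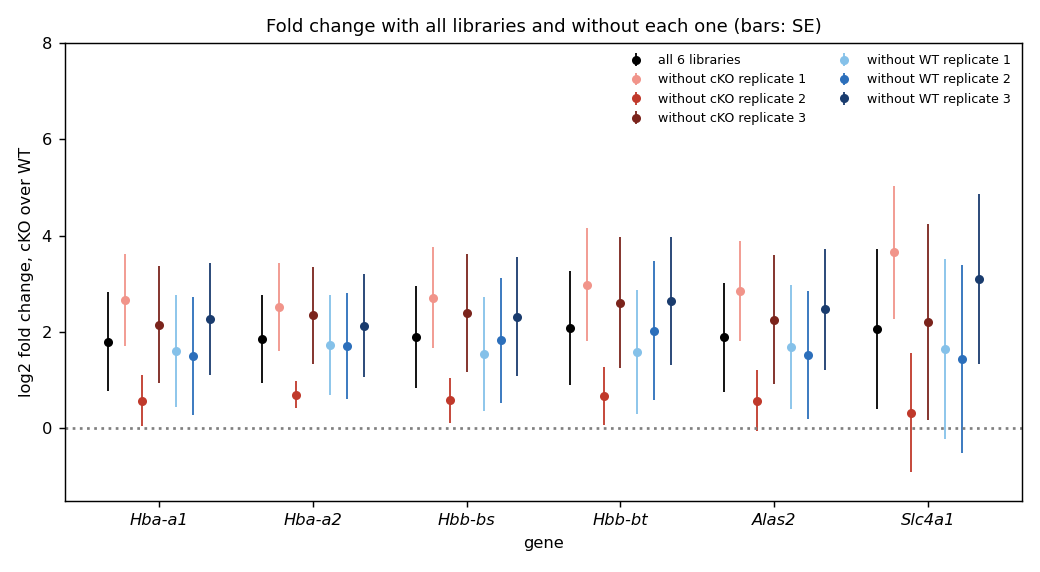
Log2 fold change of cKO over WT for the 6 members that passed the filter (y axis), with all 6 libraries in black and without each library in turn in color, bars showing the SE. The values without cKO replicate 2 lie lowest for each gene, between 0.33 and 0.70.

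Other red cell genes were read from 6 lists that held 84 different genes of the table, 68 of them tested. In 51 of the 68, cKO replicate 2 was the highest library. Among the 17 tested genes of heme synthesis and mitochondrial iron, 0 rose, 0 fell and 17 missed the threshold; the median log2 fold change was 0.26. cKO replicate 2 was highest in 14 and at least 2 times the next library in 2. Isca1, of iron-sulfur cluster assembly, was at 50.7, 66.6 and 64.0 FPKM in cKO and 53.6, 50.9 and 61.8 FPKM in WT. Glrx5, a mitochondrial glutaredoxin of the same pathway, was at 42.2, 82.5 and 55.2 FPKM in cKO and 35.1, 48.5 and 62.5 FPKM in WT. Urod, a later enzyme of heme synthesis, was at 39.3, 73.3 and 40.1 FPKM in cKO and 36.6, 37.3 and 52.0 FPKM in WT. The genes with the largest excess in cKO replicate 2, chosen after their values were seen, were Slc25a37, the mitochondrial iron importer (5.62 times the next highest library), and Tfrc, the transferrin receptor (2.13 times). Alas1, the housekeeping counterpart of Alas2, was picked out with its values known. Its level was 10.998, 13.1 and 13.97 FPKM in cKO and 14.3, 14.1 and 13.98 FPKM in WT, groups that did not overlap, with an adjusted p of 0.955 in limma. Of the 17 genes tested here, 1 had groups that did not overlap, against 7.88% of all tested genes.

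Red cell membrane and cytoskeleton genes stood closest to the members. Of 17 tested, 0 rose, 0 fell and 17 missed the threshold; the median log2 fold change was 0.59. cKO replicate 2 was highest in 15 and at least 2 times the next library in 9. Gypc, glycophorin C, was at 10.5, 17.3 and 13.2 FPKM in cKO and 19.1, 11.2 and 12.3 FPKM in WT. Slc2a1, a glucose transporter, was at 9.46, 24.6 and 13.1 FPKM in cKO and 8.60, 9.71 and 10.7 FPKM in WT. The membrane skeleton gene Epb42, picked out with its values known, stood at 13.3 FPKM in cKO replicate 2, 8.18 times the next highest library.

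Transcription factors of red cell formation and globin switching were mixed. Of 13 tested, 0 rose, 0 fell and 13 missed the threshold; the median log2 fold change was 0.06, with cKO replicate 2 highest in 6 and WT replicate 3 in 4. Of the 3 with the highest levels, Foxo3, a forkhead factor, was at 52.3, 56.4 and 59.4 FPKM in cKO and 66.9, 48.2 and 63.4 FPKM in WT. Ldb1, which bridges enhancer complexes, was at 28.2, 28.9 and 27.3 FPKM in cKO and 29.6, 27.0 and 26.7 FPKM in WT. Zfpm1, the GATA1 cofactor, was at 11.5, 19.7 and 16.0 FPKM in cKO and 15.0, 13.3 and 18.6 FPKM in WT. Ldb1 thus stayed within 26.7 to 29.6 FPKM, so the list median also rests on genes of nearly even level. The part of other ovary cells in the levels of these factors was not tested.

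Over the 13 tested factors, the level in cKO replicate 2 ranged from 0.0620 times that of WT replicate 3, for Myb, to 4.50 times, for E2f2, where each adult globin was 9.74 to 14.1 times. The factors that follow were chosen after their values were seen, from both ends of that range and between. Myb, a factor of blood progenitors, was at 0.320, 0.440 and 3.07 FPKM in cKO, against 0.425, 1.56 and 7.10 FPKM in WT. Gfi1b, a repressor in red cell and platelet precursors, was at 0, 2.61 and 2.73 FPKM in cKO, against 0.0630, 0.506 and 7.67 FPKM in WT. Klf1, an activator of adult beta globin, was at 0.663, 14.8 and 4.39 FPKM in cKO, against 0.505, 1.87 and 14.6 FPKM in WT. Gata1 was at 7.23, 13.9 and 13.5 FPKM in cKO and 2.42, 8.72 and 16.6 FPKM in WT. In Myb, Gfi1b and Gata1 the highest library was WT replicate 3, and in Klf1 cKO replicate 2 and WT replicate 3 lay at nearly the same level. E2f2, a cell cycle factor, was at 1.52, 14.7 and 3.56 FPKM in cKO, against 1.57, 1.76 and 3.26 FPKM in WT. Nfe2, a factor of red cell and platelet precursors, was at 0.144, 8.34 and 1.69 FPKM in cKO, against 0.348, 0.616 and 2.81 FPKM in WT. Tal1 and Lmo2, partners in a complex with GATA1, were also highest in cKO replicate 2, at 1.98 and 1.48 times WT replicate 3.

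A list of other erythroid genes had 17 tested members, of which Fech and Rhd also stand in the heme and membrane lists. In it 0 rose, 0 fell and 17 missed the threshold; the median log2 fold change was 0.35, and cKO replicate 2 was highest in 16. Ahsp, the chaperone of free alpha globin, was at 6.198, 342 and 24.5 FPKM in cKO and 4.43, 4.33 and 58.6 FPKM in WT. The antioxidant gene Gpx1 was at 74.4, 285 and 124.5 FPKM in cKO and 67.5, 84.5 and 141 FPKM in WT, and Prdx2, a peroxiredoxin, at 122, 201 and 134 FPKM in cKO and 115, 126 and 130.4 FPKM in WT. Car1, a carbonic anhydrase gene chosen after its values were seen, lay below the filter with its highest level in WT replicate 3, at 0, 1.22 and 0.259 FPKM in cKO and 0, 0.0788 and 5.47 FPKM in WT.

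**Figure D4:**
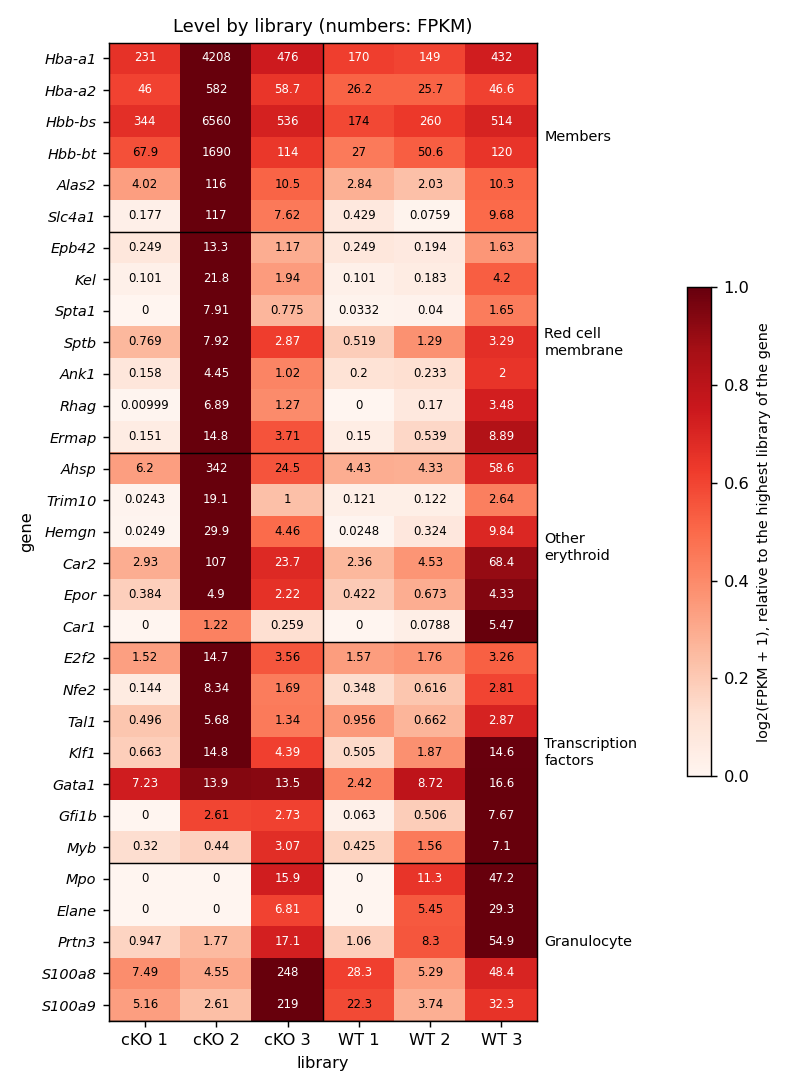
Level of red cell and granulocyte genes (rows, grouped by role) in the 6 libraries (columns, cKO left of WT), with the FPKM printed in each cell and the color giving log2(FPKM + 1) relative to the gene's highest library. The genes were picked with their values known. Globin and membrane genes peak in cKO replicate 2, Gata1, Gfi1b, Myb and Car1 in WT replicate 3, and the granulocyte genes in cKO replicate 3 or WT replicate 3.

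Genes that clear hemoglobin and heme did not follow globin as a list. Of 5 tested, 0 rose, 0 fell and 5 missed the threshold; the median log2 fold change was 0.03, and cKO replicate 2 was highest in 2. Hmox1, heme oxygenase, was at 59.0, 86.4 and 55.2 FPKM in cKO and 32.4, 37.2 and 49.7 FPKM in WT. Its groups did not overlap, with a log2 fold change of 0.73, an unadjusted p of 0.0120 and an adjusted p of 0.955 in limma. Of the 5 tested, 1 had groups that did not overlap, where 7.88% of all tested genes did. In the membrane, transcription factor and other erythroid lists the number was 0. Slc40a1, the iron exporter ferroportin, was at 55.1, 65.3 and 58.9 FPKM in cKO and 69.5, 49.6 and 57.3 FPKM in WT, and Slc48a1, a heme transporter, at 21.05, 27.7 and 24.1 FPKM in cKO and 17.8, 22.05 and 22.4 FPKM in WT.

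Of the other globins, 6 listed genes were in the table. Hbq1b, a theta-type alpha globin gene, stood at 0.0769, 10.8 and 0.722 FPKM in cKO, against 0.153, 0 and 0.616 FPKM in WT, and missed the filter because only 1 library passed 1 FPKM. Cytoglobin, from Cygb, which is made outside red cells, was the only one tested, at 18.8, 15.3 and 20.1 FPKM in cKO and 33.3, 19.8 and 12.4 FPKM in WT, with an adjusted p of 0.972 in limma. Neuroglobin, from Ngb, stayed at or below 0.365 FPKM, and Hbb-bh2, picked out with its values known, was listed at 0 in all 6 libraries.

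Endothelial, granulocyte and macrophage markers did not share the globin order. Platelet genes, given under other observations, were high in both cKO replicate 2 and WT replicate 2. Endothelial genes (10 in the list, none at 0) summed to 65.9, 49.2 and 53.7 FPKM in cKO and 200.1, 64.0 and 43.3 FPKM in WT, so WT replicate 1, the highest of them, had the lowest adult globin level. Granulocyte genes (10 in the list) summed to 16.1, 9.95 and 603 FPKM in cKO and 58.3, 35.2 and 225 FPKM in WT. Their sum was lowest in cKO replicate 2. Of the 10 genes, 3 were at 0 in cKO replicate 1 (Camp, Elane and Mpo), 3 in cKO replicate 2 (Elane, Mpo and Retnlg) and 2 in WT replicate 1 (Elane and Mpo), genes named for these zeros after their values were seen. Of the 6 tested, 3 were highest in cKO replicate 3 and 3 in WT replicate 3, so the sum hides 2 orders. S100a8, a calcium-binding protein of neutrophils, was at 7.49, 4.55 and 248 FPKM in cKO and 28.3, 5.29 and 48.4 FPKM in WT. Prtn3, of the same list, was at 0.947, 1.77 and 17.1 FPKM in cKO and 1.06, 8.30 and 54.9 FPKM in WT. Macrophage genes (10 in the list, none at 0) summed to 34.6, 30.2 and 65.2 FPKM in cKO and 40.3, 33.5 and 33.3 FPKM in WT. The high sum in cKO replicate 3 came mostly from Lyz2, at 6.91, 9.11 and 37.6 FPKM in cKO and 9.83, 7.30 and 11.6 FPKM in WT. Of the 7 tested, 2 were highest in cKO replicate 3 and 3 in WT replicate 1. Of 9 endothelial, 6 granulocyte and 7 macrophage genes tested, 0 rose and 0 fell. The part of these cells in the erythroid values was not tested.

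**Figure D5:**
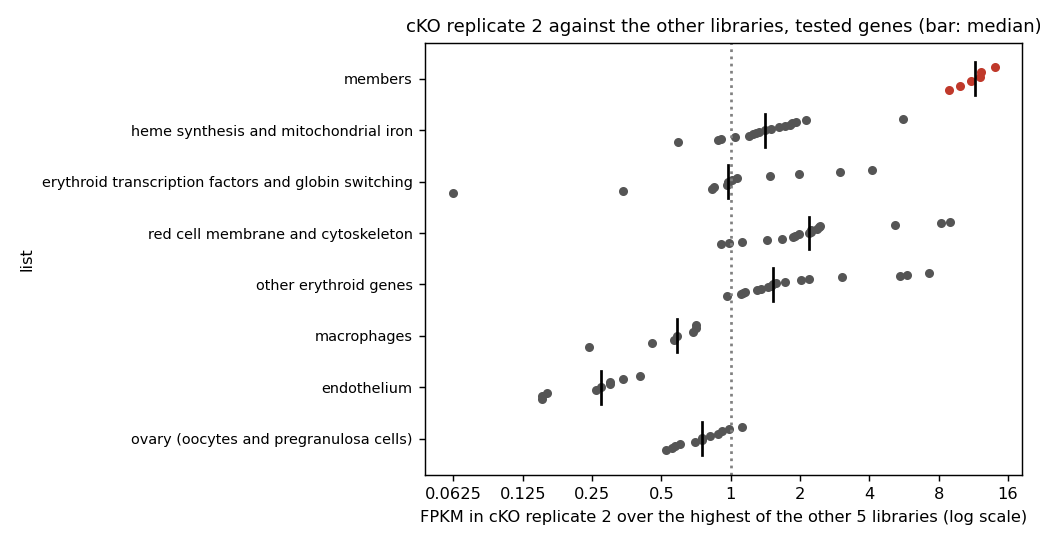
Level in cKO replicate 2 divided by the highest of the other 5 libraries (log axis) for the tested genes of each list, 1 point per gene, with a bar at the median. The members lie between 8.85 and 14.1 with a median of 11.6, membrane genes have a median of 2.18, and transcription factors of 0.974. The transcription factor list includes genes of nearly even level, such as Ldb1.

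Outside all lists, the genes whose log2(FPKM + 1) ran most like the mean of the 4 adult globins over the 6 libraries included Marchf3, Cdr2, Acp5, Josd2, Dhrs11, Tent5c and Chac2, with Pearson r between 0.976 and 0.994 among 1375 genes that varied by at least 1 on the log2 scale. With 6 libraries, of which 1 lies far from the rest, such an r rests largely on that library. Marchf3, a membrane-bound ubiquitin ligase gene, was at 1.37, 5.38 and 1.55 FPKM in cKO and 1.01, 0.944 and 1.68 FPKM in WT. By the same measure Alas2 had an r of 0.988 and Slc4a1 of 0.944.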

How the data were processed

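RNA sequencing of 6 mouse ovary samples was analysed as deposited. The authors deposited FPKM values (fragments per kilobase of gene length, scaled to library size), with gene lengths and coordinates, for 47122 genes. Per the submitters' processing notes, the authors used HISAT2 2.0.5, and both mm10 and GRCm39 appear as builds. The table's chromosome accessions are those of GRCm39. The sources used here do not give the counting tool, strand setting, annotation release or treatment of reads that fit several genes.

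FPKM times gene length, divided by 1 step per library, gave whole reads: within each library 100% of the values above 0, those with the highest read numbers left out, lay within 0.05 of a whole number. The recovered reads numbered 16800421 to 18382568 per cKO library and 17252045 to 19565275 per WT library. They served for read numbers, intervals and 1 alternative test. PCR copies are not told apart, so intervals cover counting error only.

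Genes with at least 1 FPKM in at least 3 libraries (14589) were tested as log2(FPKM + 1) with limma 3.58.1 in R 4.3.3 (eBayes with trend, two-sided, Benjamini-Hochberg over all tested genes, threshold 0.05). The fit was tested on simulated data with the same dispersion setting for all genes, changes only in genes with many reads and no outlying library. That test therefore does not cover a library like cKO replicate 2. Fold changes on this scale understate the change of low genes. Exact two-sided permutation tests of the 6 values stand beside it and cannot go below 0.1. Sums, shares and ratios over several members carry no test.

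The members and the gene lists were chosen with earlier results of these data known, and so was cKO replicate 2 as the library set apart. Named are the members, the 3 list genes with the highest mean FPKM in each list, and the 8 genes outside the lists most like the adult globins. Of the genes this rule names, 2 are not reported here. Other list genes in the text are marked as chosen after their values were seen. Promoter sequences are from RefSeq (GRCm38.p6) and transcripts from GENCODE M21. The alternatives tried were TPM in place of FPKM, scaling by median ratios, other pseudocounts (0.1 and 0.5), a filter at 5 FPKM or none, a replicate block, limma-voom on the recovered reads, and leaving out each library in turn.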

Additional observations from a re-analysis of the deposited data

How the results depend on the processing

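None of the 6 tested members was called by limma under any of the 14 alternatives, and all 6 kept a higher mean in cKO. Their log2 fold changes ranged from 0.33 to 3.65, with adjusted p from 0.599 to 1.000. Their size depended most on cKO replicate 2. Without it the values fell to 0.58 for Hba-a1, 0.70 for Hba-a2, 0.59 for Hbb-bs, 0.67 for Hbb-bt, 0.58 for Alas2 and 0.33 for Slc4a1. The list medians for membrane, other erythroid and transcription factor genes were then −0.10, −0.05 and −0.18. Other libraries also moved the members. Without cKO replicate 1 they rose, to between 2.52 for Hba-a2 and 3.65 for Slc4a1, and without WT replicate 3 Slc4a1 rose to 3.10. Leaving out 1 library at a time gave 0 to 1 called genes over the whole table. The 1 gene, without cKO replicate 2, was Pcna-ps2, a processed pseudogene that is no member. Rescaling to TPM put adult globins in cKO replicate 2 at 9.79 times the highest other library, against 11.01 in FPKM. It moved the median log2 fold change of all genes to −0.08. The replicate block called 0 genes. Same-numbered libraries had correlations of deviations of 0.221, 0.0135 and −0.0278, so the numbers were not read as pairs. Embryonic shares rest on 11 reads and cannot be ordered between the groups at this depth. Groups of 3 are too small to test a single library as an outlier.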

Other observations

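Platelet genes had an order of their own. Of 10 listed, 3 were tested and 0 rose or fell. Their sum was 8.42, 25.3 and 11.4 FPKM in cKO replicates 1 to 3, and 8.52, 30.3 and 8.99 FPKM in WT replicates 1 to 3, so cKO replicate 2 and WT replicate 2 stood above the rest. Pf4, platelet factor 4, was at 5.38, 11.4 and 8.36 FPKM in cKO and 3.71, 14.6 and 4.44 FPKM in WT. Ppbp, a platelet chemokine precursor, was at 0.212, 6.47 and 0.150 FPKM in cKO and 0.583, 8.51 and 0.425 FPKM in WT. Itga2b, a platelet integrin, was at 1.16, 3.04 and 1.26 FPKM in cKO and 1.59, 3.10 and 1.31 FPKM in WT. WT replicate 2 thus matched cKO replicate 2 in platelet genes while its adult globin sum was 485 FPKM, against 13040 FPKM in cKO replicate 2.

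Genes of liver and plasma proteins peaked in WT replicate 1. The sum of 12 was 10.7, 13.9 and 26.6 FPKM in cKO and 167.5, 11.1 and 9.60 FPKM in WT. Alb, serum albumin, was at 1.03, 3.69 and 8.44 FPKM in cKO and 67.6, 0.168 and 1.61 FPKM in WT. Trf, transferrin, was at 6.88, 5.32 and 7.76 FPKM in cKO and 20.6, 6.05 and 5.80 FPKM in WT, and Apoa1, an apolipoprotein, at 0.641, 1.32 and 2.13 FPKM in cKO and 18.4, 2.86 and 0.414 FPKM in WT. Of these genes 4 were tested and 0 rose or fell. Lymphocyte genes summed to at most 5.21 FPKM in any library, with Ighm, the heavy chain of immunoglobulin M, at 0.849, 0.558 and 2.79 FPKM in cKO and 1.92, 1.16 and 1.61 FPKM in WT.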
